A study of Homo sapiens with 16 samples.

Results

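The 10 genes described here, chosen by symbol, encode proteins that control the translation of TOP mRNAs: the La-related proteins LARP1 and LARP4, the mTORC1 subunits MTOR, RPTOR and MLST8 with the inhibitor DEPTOR, the S6 kinases RPS6KB1 and RPS6KB2, and TSC1 and TSC2. All 10 were found among the 58302 gene identifiers of the count files, and all 10 passed the filter on low counts in every comparison. RNA was sequenced from HEK-293 cells, an established human embryonic kidney line, from cytoplasmic lysates (Input) and from the polysome fractions of a sucrose gradient (Polysome). The siRNAG5 cells had received 100 nM of a siRNA against Gemin5, an RNA-binding protein of the SMN complex that also binds ribosomes. The Ctrl libraries are labelled untreated, while the study measured silencing relative to a control siRNA that it also calls Ctrl, so both descriptions are given here. Each of the 4 groups, Input Ctrl, Input siRNAG5, Polysome Ctrl and Polysome siRNAG5, had 4 replicate libraries, and silencing was transient and used 1 siRNA.

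As background, mTORC1 is a kinase complex that couples protein synthesis to nutrients and growth factors. RAPTOR, the product of RPTOR, recruits substrates to it, MLST8 stabilises the kinase domain and DEPTOR inhibits it. TSC1 and TSC2 form a complex that turns off RHEB, the small GTPase that activates mTORC1. Among the mTORC1 substrates are the S6 kinases and LARP1, which binds the cap and the adjoining pyrimidine tract of TOP mRNAs, the class of messages that encode ribosomal proteins. LARP4 binds poly(A) and protects mRNA 3′ ends.

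The siRNA and its target are shown because every comparison of treatments rests on them. The first 19 bases of the siRNA strand matched the GEMIN5 coding sequence once, in exon 18 of 28 of the canonical transcript, at chr5:154904608-154904626 on the minus strand of GRCh38. The guide strand is its reverse complement, and capitals mark its seed, bases 2 to 8.
siRNA strand in the labels: ccuuaaucaagaagagaaauu
guide strand: uUUCUCUUcuugauuaagg
None of the 10 transcripts held the 19-base target. The 7 bases that pair with the seed, AAGAGAA, occurred 4 times in the 3′ UTR of LARP4 and 1 time in that of MTOR, and were found in no 3′ UTR of the other 8 genes. Of all 12433 protein-coding genes tested, 25.2% held at least 1 copy in the 3′ UTR of the canonical transcript.

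GEMIN5 itself was lower in both fractions of siRNAG5 cells. In Input it was at 15.9, 18.9, 16 and 20.7 CPM (reads of the gene scaled by library size and composition) in Ctrl and at 7.46, 6.51, 6.22 and 6.68 CPM in siRNAG5, a log2 FC of -1.40 ± 0.12 (SE, adjusted p = 3.105e-10). In Polysome the log2 FC was -1.44 ± 0.21 (adjusted p = 0.00477), and the groups did not overlap in either fraction. LARP1 lies 69.8 kb from GEMIN5 on chromosome 5, and MLST8 and TSC2 lie 115 kb apart on chromosome 16.

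The start of a TOP mRNA is a C followed by at least 4 bases that are C or T. In the annotated canonical transcripts (GENCODE v44, GRCh38), 60 of the 79 cytosolic ribosomal protein genes started this way, against 5.48% of the 12433 protein-coding genes tested and none of the 10 genes here. The lines below set 2 ribosomal protein mRNAs beside 4 of the 10 genes, 2 with more and 2 with less RNA in Polysome than in Input. Each line holds the 20 bases at the annotated 5′ end, and capitals mark the leading run of C and T.
RPS6, chr9:19380217-19380236, minus strand: CTCTTTTCCgtggcgcctcg
RPS16, chr19:39435930-39435949, minus strand: CCTTTTCCggttgcggcgcc
LARP1, chr5:154755377-154755396, plus strand: gtccatattgctgcagcccc
RPS6KB1, chr17:59893121-59893140, plus strand: gcactgagcctaagcagccg
MTOR, chr1:11262532-11262551, minus strand: gctcccggcttagaggacag
TSC2, chr16:2047985-2048004, plus strand: gcttccggcggcgtcccggg
All 10 canonical transcripts began with a purine, so none had such a run. These are annotated ends, and the start sites used in these cells were not measured here. The annotated end of RPL32, the TOP mRNA behind the paper's reporter, had 0 leading pyrimidines. An annotated end can thus lack the run of a TOP mRNA.

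Depth and spread set how firmly each value can be read. Between 11145324 and 24511299 reads fell on genes in a library. Reads per gene among the 10 ranged from 33 for RPTOR in an Input Ctrl library to 3505 for MLST8 in an Input siRNAG5 library, with RPTOR and MTOR holding the fewest. The 8 HEK293 marker genes had reads in all groups, with summed levels of 1160 to 1680 CPM in Input and 495 to 782 CPM in Polysome. The 14 liver genes, among them ALB and APOA1, summed to 1.07 to 1.26 CPM in Input siRNAG5 and 0.371 to 0.876 CPM in Polysome siRNAG5, but to 79.6 to 165 CPM in all 4 Polysome Ctrl libraries and up to 148 CPM in Input Ctrl, with 148 and 129 CPM in libraries 3 and 4 and 2.59 and 1.12 CPM in libraries 1 and 2. In Polysome, liver reads and treatment cannot be told apart. Blood markers (7 genes) stayed between 3.21 and 8.49 CPM and brain markers (6 genes) between 0.747 and 2.31 CPM.

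Levels per length, as CPM per kilobase of exon, separated the genes by more than their changes did. MLST8 was the most abundant in Input Ctrl at 52.4 ± 1.94 (SD, n = 4), followed by RPS6KB2 at 23.5 ± 1.59. Next came DEPTOR at 3.00 ± 0.406 and RPS6KB1 at 2.34 ± 0.122, whose ranges overlapped. TSC2 at 1.23 ± 0.14 and LARP4 at 1.23 ± 0.0951 could not be ordered on this scale, and LARP1 at 0.842 ± 0.127, MTOR at 0.716 ± 0.068, TSC1 at 0.581 ± 0.116 and RPTOR at 0.386 ± 0.0791 formed the low end, each overlapping the next. MLST8, RPS6KB2 and DEPTOR held ranks 1, 2 and 3 in all 4 groups. LARP1 was at rank 7 in both Input groups and at rank 4 in both Polysome groups, where its range overlapped that of RPS6KB1 and, in Ctrl, that of DEPTOR. MTOR was at rank 8 in Input and rank 10 in Polysome, where it overlapped RPTOR. With the length of the canonical transcript in place of the union of exons, an alternative chosen after seeing the data, MLST8 and RPS6KB2 kept ranks 1 and 2, DEPTOR was at rank 4 or 5 and, in Input Ctrl, TSC2 at 3.93 ± 0.449 (rank 3) stood above LARP4 at 1.54 ± 0.12 (rank 6). Of the 40 levels, 36 moved by more than 1 SD with this choice, so the order below the top 2 genes depends on the length used.

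**Figure D1:**
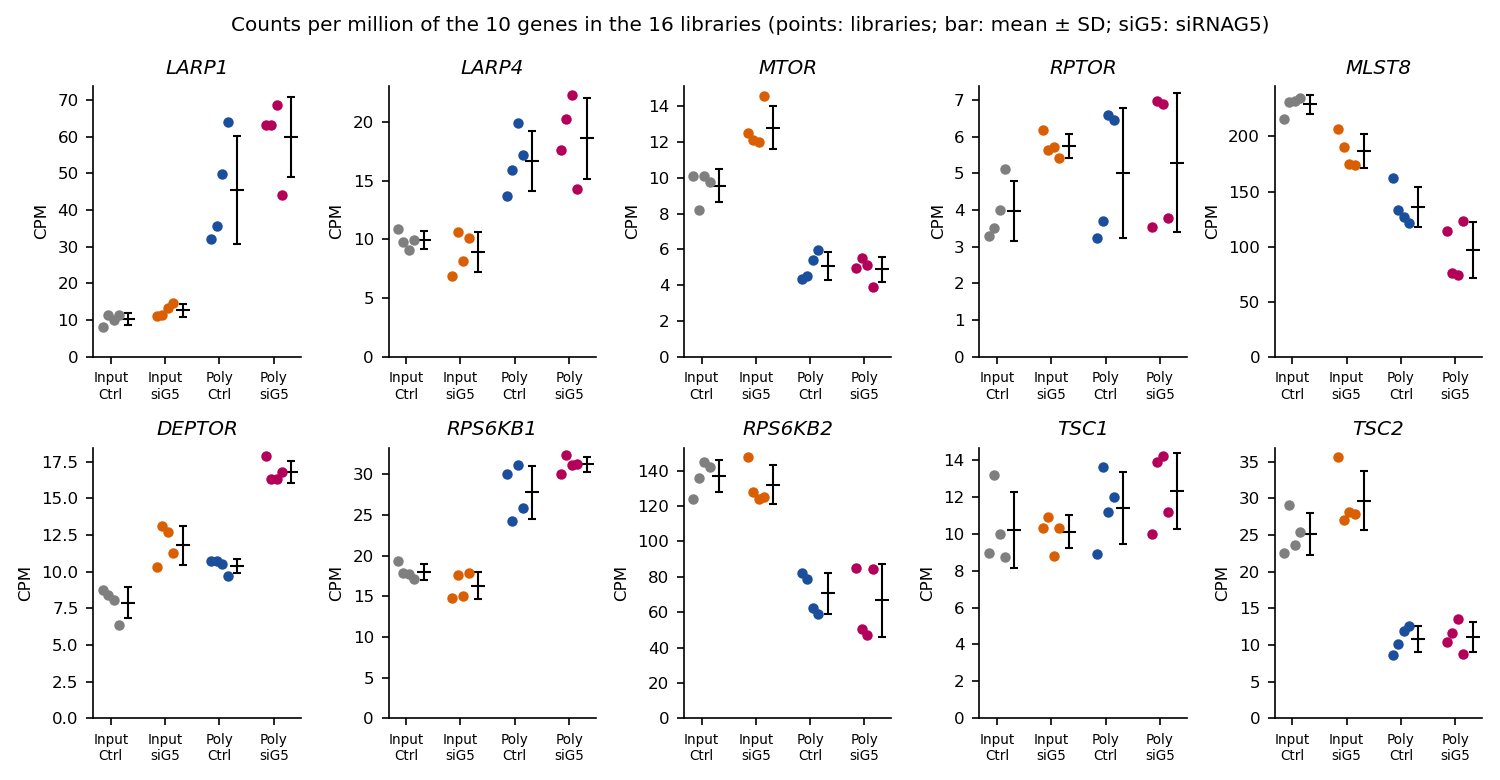
CPM (y axis, from 0) of each of the 10 genes in the 16 libraries by group (x axis), with points for libraries and a bar for the mean ± SD. LARP1 stood between 32 and 68.7 CPM in Polysome and between 8.16 and 14.8 CPM in Input, and DEPTOR was higher in every siRNAG5 library than in any Ctrl library of the same fraction.

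Silencing in Input was compared first, to see which of these mRNAs changed in the cytoplasm. DEPTOR, the mTOR inhibitor, was at 8.75, 8.38, 8.09 and 6.35 CPM in Ctrl and at 10.3, 13.1, 12.7 and 11.3 CPM in siRNAG5. All siRNAG5 libraries lay above all Ctrl libraries, and the log2 FC was 0.60 ± 0.13 (adjusted p = 0.0003878), a 1.51-fold rise. RPTOR, the substrate-binding subunit, was at 3.28, 3.52, 4.00 and 5.12 CPM in Ctrl and at 6.19, 5.64, 5.73 and 5.42 CPM in siRNAG5. Its groups did not overlap either, with a log2 FC of 0.54 ± 0.16 (adjusted p = 0.00755). A gene was called where its adjusted p lay below 0.05 and its log2 FC exceeded 0.5 in size. These were the 2 genes of 10 called, both higher, where 10.5% of the 14134 genes tested were called higher and 6.02% lower.

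The call of RPTOR depended on Input Ctrl libraries 1 and 2, those with few liver reads. Its log2 FC fell to 0.46 (adjusted p = 0.0365) without Input Ctrl library 1, to 0.48 (0.0377) without library 2, and to 0.35 (0.192) with libraries 3 and 4 alone, against 0.75 (0.00502) with libraries 1 and 2 alone. With all 16 libraries in one fit it was 0.53 (adjusted p = 0.18). DEPTOR moved the other way, from 0.73 (adjusted p = 0.00292) with Input Ctrl libraries 3 and 4 alone to 0.48 (0.0214) with libraries 1 and 2 alone, where it passed the adjusted p but not the fold. The part of the liver reads in these values was not tested.

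MTOR, the kinase, passed the adjusted p without reaching the fold. It was at 10.1, 8.23, 10.1 and 9.76 CPM in Ctrl and at 12.5, 12.1, 12.0 and 14.6 CPM in siRNAG5, with a log2 FC of 0.44 ± 0.12 (adjusted p = 0.00351). MLST8 was the opposite case, at 216, 231, 232 and 235 CPM in Ctrl and 207, 190, 175 and 174 CPM in siRNAG5, a log2 FC of -0.28 ± 0.07 (adjusted p = 0.00125). Neither gene's groups overlapped. With DEPTOR and RPTOR, 4 of the 10 genes had groups without overlap, near the share of 34.2% of all genes tested. Of these, MLST8 was lower in siRNAG5 and the others were higher.

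The remaining genes did not pass the adjusted p in the main fit of Input. For LARP1 the value was 0.31 ± 0.13 (adjusted p = 0.0514), and for TSC2, the GTPase-activating part of its complex, 0.24 ± 0.10 (adjusted p = 0.059). With 1 surrogate variable in the fit, LARP1 had 0.33 (adjusted p = 0.0156) and TSC2 0.21 (0.0481), past the adjusted p but not the fold. Over the alternatives their adjusted p ran from 0.0144 to 0.348 and from 0.0208 to 0.302. LARP4, RPS6KB1, RPS6KB2 and TSC1 had values from -0.14 to -0.02 with adjusted p from 0.344 to 0.904. The median over the 10 genes was 0.11, and that over all genes tested was 0.04. Over all 11884 protein-coding genes tested, Spearman rho of this log2 FC was 0.35 with coding sequence length and 0.24 with transcript length. Over the 10 genes it was 0.43 and 0.42. These are descriptions across genes, and the part of length in the Input values was not tested.

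Silencing in Polysome gave 1 call, DEPTOR again. Its levels were 10.7, 10.7, 10.5 and 9.68 CPM in Ctrl and 17.9, 16.3, 16.3 and 16.8 CPM in siRNAG5. The spread within each group was small beside the gap, with a log2 FC of 0.74 ± 0.13 (adjusted p = 0.0112), a 1.67-fold rise, and the value stayed between 0.69 and 0.77 under every alternative run. In this comparison 3.95% of the 14420 genes tested were called higher and 4.0% lower, and DEPTOR was the only 1 of the 10 genes whose groups did not overlap, against 18.3% of all genes.

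LARP1 in Polysome was at 32, 35.6, 49.9 and 64.0 CPM in Ctrl and at 63.3, 63.3, 68.7 and 44.1 CPM in siRNAG5. The groups overlapped through Ctrl library 4 and siRNAG5 library 4, and the log2 FC of 0.45 ± 0.22 did not pass (adjusted p = 0.199). MLST8 was at 162, 133, 127 and 121 CPM in Ctrl and at 114, 76.3, 74.5 and 123 CPM in siRNAG5, a log2 FC of -0.45 ± 0.19 (adjusted p = 0.155), so its difference had the same sign as in Input. MTOR did not differ beyond its error (log2 FC -0.01 ± 0.19, adjusted p = 0.991). The other 6 genes ranged from -0.05 to 0.21. The median of the 10 was 0.14, beside 0.03 for all genes. Over 12263 protein-coding genes, rho of this log2 FC was 0.35 with transcript length, 0.25 with 3′ UTR length and -0.12 with GC content. Over the 10 genes the values were 0.21, 0.67 and -0.75, again as descriptions across genes.

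Polysome libraries varied among themselves in a way that crossed the treatments. In Ctrl libraries 1 and 2 and siRNAG5 libraries 1 and 4, the deviation of a gene from its group mean was negatively related to transcript length (Spearman rho from -0.52 to -0.27 over 12433 genes, a description, since genes in a library share its preparation). In the other 4 Polysome libraries rho was 0.39 to 0.46. RPTOR followed this division throughout, at 3.25 and 3.71 CPM against 6.59 and 6.45 CPM in Ctrl, and at 3.54 and 3.78 CPM against 6.97 and 6.89 CPM in siRNAG5. The short transcript of RPS6KB2 went the other way, with deviations of 0.17 to 0.40 (log2) in the former libraries and -0.45 to -0.16 in the latter.

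Within each set of libraries the differences between treatments were as follows, with 2 libraries against 2 and no test. DEPTOR differed by 0.70 (log2) in the former and 0.69 in the latter set, and did not overlap in either. MLST8 differed by -0.31 and -0.72, again with no overlap in either set. LARP1 differed by 0.67 without overlap and by 0.21 with overlap, and RPTOR by 0.07 with and 0.09 without overlap. RPS6KB2 (0.07 and -0.32, without overlap in either) and TSC1 (-0.09 with and 0.27 without overlap) changed sign between the sets. Lack of overlap between 2 and 2 libraries thus came with values as small as 0.07 and 0.09. The share of all genes without overlap in these sets was not counted. With 1 surrogate variable in the fit, the log2 FC of LARP1 was 0.41 (adjusted p = 0.00898) and that of MLST8 -0.40 (0.00148), so both passed the adjusted p but not the fold. The part of transcript length in the 10 genes' values was not otherwise tested.

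**Figure D2:**
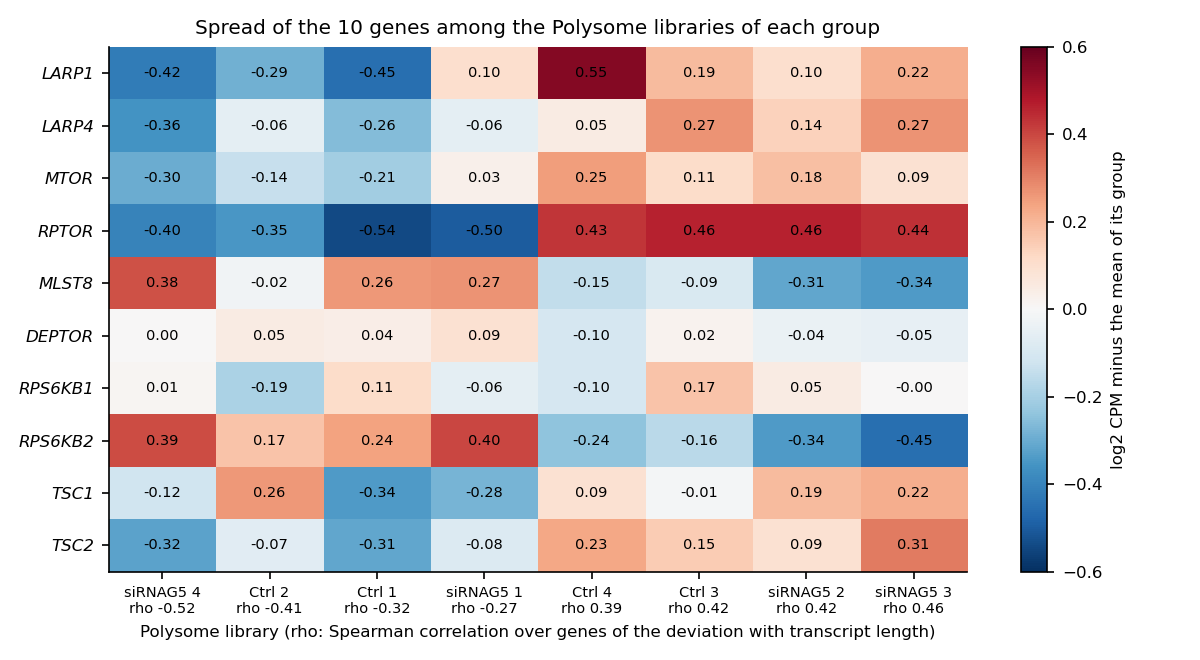
Deviation of log2 CPM from the mean of its group (colour and printed value) for the 10 genes (rows) in the 8 Polysome libraries (columns, ordered by the rho of deviation with transcript length printed below each). RPTOR was at -0.54 to -0.35 in the 4 libraries on the left and 0.43 to 0.46 in those on the right, while DEPTOR stayed within -0.10 to 0.09.

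Polysome against Input addressed which of these mRNAs were enriched on polysomes. Such a ratio is relative to all mRNA in the library, so a lower value can come with fewer polysome-bound copies or with more of other mRNAs there. In Ctrl cells 3 of the 10 genes were called higher in Polysome and 4 lower, where 19.4% of the 14958 genes tested were called higher and 18.2% lower. In siRNAG5 cells 4 were higher and 4 lower, where 21.5% of genes were higher and 25.4% lower. Groups did not overlap for 8 of the 10 genes in either treatment, against 42.0% of genes in Ctrl and 50.0% in siRNAG5.

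LARP1 was the gene with the largest enrichment of the 10. It was at 8.16 to 11.5 CPM in the Input Ctrl libraries and at 32 to 64.0 CPM in Polysome Ctrl, a log2 FC of 2.14 ± 0.20 (adjusted p = 1.644e-07), or 4.39-fold, above the value of 99.2% of all genes tested. In siRNAG5 cells the Input libraries held 11.2 to 14.8 CPM and the Polysome libraries 44.1 to 68.7 CPM, a log2 FC of 2.23 ± 0.20 (adjusted p = 3.011e-08). LARP4 was also higher in Polysome, with a log2 FC of 0.75 ± 0.16 in Ctrl (adjusted p = 0.00104) and 1.06 ± 0.16 in siRNAG5 (adjusted p = 1.622e-05).

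The S6 kinases lay on opposite sides. RPS6KB1, which encodes S6K1, was at 17.1 to 19.3 CPM in Input Ctrl and 24.3 to 31.1 CPM in Polysome Ctrl (log2 FC 0.63 ± 0.11, adjusted p = 0.0001298). RPS6KB2, which encodes S6K2, was at 124 to 145 CPM in Input Ctrl and 59.2 to 82.4 CPM in Polysome Ctrl (log2 FC -0.95 ± 0.17, adjusted p = 0.0001643). In siRNAG5 the values were 0.93 ± 0.11 for RPS6KB1 and -0.98 ± 0.17 for RPS6KB2 (adjusted p = 7.557e-07 and 7.478e-05).

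The TSC genes differed as well. TSC2 was at 22.5 to 29.1 CPM in Input Ctrl and 8.58 to 12.6 CPM in Polysome Ctrl, the lowest ratio of the 10 genes in Ctrl (log2 FC -1.22 ± 0.15, adjusted p = 3.883e-06), and it had -1.41 ± 0.15 in siRNAG5 (adjusted p = 2.66e-07). TSC1 had 0.16 ± 0.17 and 0.29 ± 0.16, neither past the adjusted p (0.461 and 0.121). The 3′ part of TSC2 overlaps PKD1 on the other strand by 784 exon bases. PKD1 held 385 reads over all libraries against 4837 for TSC2.

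Within mTORC1 the kinase and its stabilising subunit were lower in Polysome. MTOR was at 8.23 to 10.1 CPM in Input Ctrl and 4.33 to 5.98 CPM in Polysome Ctrl (log2 FC -0.91 ± 0.15, adjusted p = 6.639e-05) and at 12.0 to 14.6 CPM in Input siRNAG5 and 3.92 to 5.50 CPM in Polysome siRNAG5 (log2 FC -1.39 ± 0.14, adjusted p = 1.771e-07). MLST8 had -0.75 ± 0.15 in Ctrl and -0.94 ± 0.15 in siRNAG5 (adjusted p = 0.0003924 and 2.62e-05). DEPTOR was higher in Polysome by 0.39 ± 0.13 in Ctrl, past the adjusted p (0.0156) but not the fold, and by 0.505 in siRNAG5 (SE 0.12, adjusted p = 0.00119), just past the fold and below it without Input siRNAG5 library 1 or 4 or Polysome siRNAG5 library 1 (0.44 to 0.48). RPTOR had 0.34 ± 0.27 and -0.11 ± 0.24, with overlap in both treatments.

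**Figure D3:**
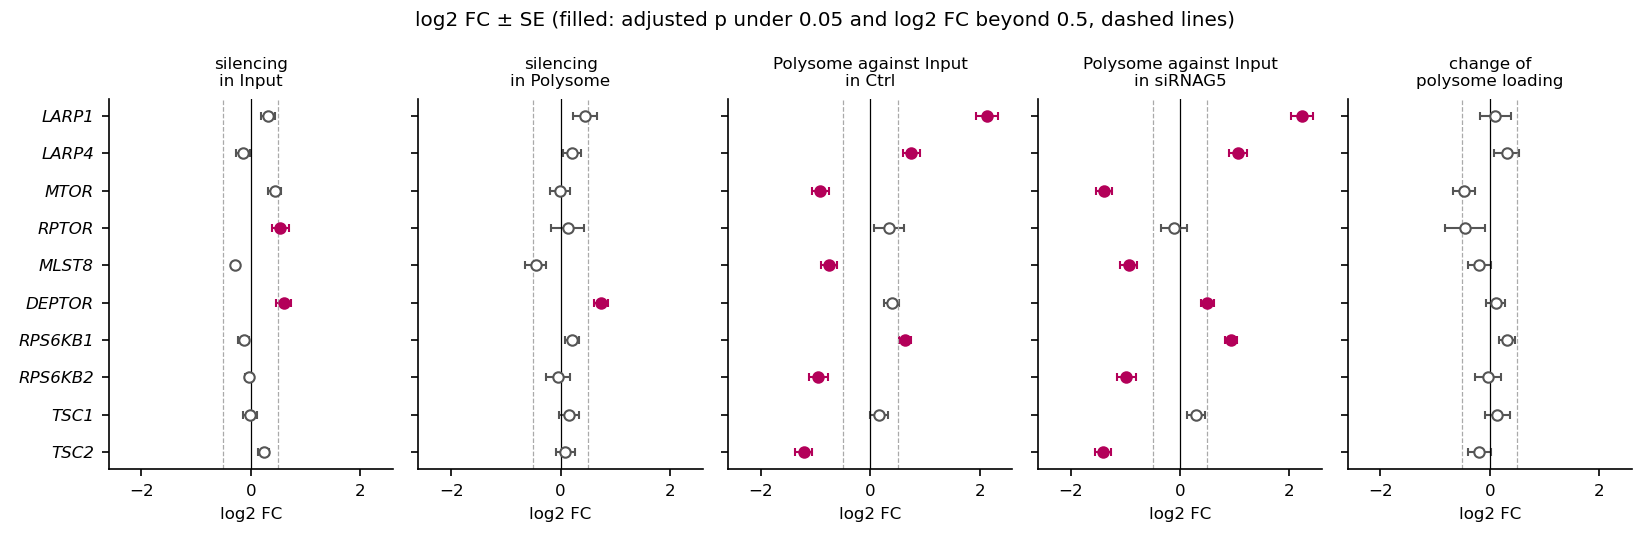
The log2 FC ± SE (x axis) of the 10 genes (rows) in the 5 comparisons (panels), filled where called (dashed lines at a log2 FC of -0.5 and 0.5). For silencing, DEPTOR was called in both fractions and RPTOR in Input. Of 17 Input fits, 4 lost the call of RPTOR and 1 that of DEPTOR. Between Polysome and Input 7 genes in Ctrl and 8 in siRNAG5 were called, and none passed for the change of loading.

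Whether silencing changed the loading on polysomes was tested by the interaction, the difference between the Polysome against Input ratios of siRNAG5 and Ctrl. None of the 10 genes passed, and neither did any other of the 14958 genes (0.0% lower, 0.0% higher) with edgeR. Before adjustment, p was below 0.05 for 701 genes with negative and 388 with positive values, and DESeq2 called 11 lower and 18 higher. MTOR had the most negative value of the 10, -0.47 ± 0.20 (unadjusted p = 0.03227, adjusted p = 0.616, and 0.148 to 1.0 over the alternatives). It was higher in siRNAG5 than Ctrl in Input and at 5.06 ± 0.771 CPM in Polysome Ctrl and 4.89 ± 0.682 CPM in Polysome siRNAG5 (SD, n = 4). RPTOR had -0.45 ± 0.36, RPS6KB1 0.31 ± 0.15 (unadjusted p = 0.0608), LARP4 0.31 ± 0.23 and LARP1 0.10 ± 0.28. The values for TSC2, MLST8, RPS6KB2, DEPTOR and TSC1 ran from -0.19 to 0.14. The standard errors leave room for changes in loading of the size that silencing gave in Input.

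The direction of the polysome ratio went along with transcript structure, which the choice of genes did not use. The 4 genes lower in Polysome had the shortest 3′ UTRs of the 10, with 232 bases in RPS6KB2, 576 in MLST8, 881 in TSC2 and 950 in MTOR. The genes called higher had 3509 bases in LARP1, 4140 in LARP4 and 3786 in RPS6KB1, with 1214 in DEPTOR. RPTOR (2038) and TSC1 (4886) were not called. Total length did not divide them in this way, since MTOR (8721 bases) and TSC2 (6415) are long through their coding sequences of 7650 and 5424 bases.

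Over the 10 genes, Spearman rho between the log2 FC of Polysome against Input and 3′ UTR length was 0.71 in Ctrl and 0.72 in siRNAG5. Over all 12433 protein-coding genes tested it was 0.44 and 0.51, so the 10 genes lay along a relation that the libraries showed at large. GC content had rho of -0.65 and -0.64 in the 10 genes and -0.16 and -0.29 over all. Total length had rho of 0.18 and 0.10 in the 10 genes but 0.36 and 0.39 over all. For 5′ UTR length the values were 0.54 and 0.47 in the 10 genes and 0.33 and 0.31 over all. LARP4 (35.9% GC) and RPS6KB1 (37.2%) were the poorest in GC of the 10, and MLST8 (63.0%) and RPS6KB2 (62.3%) the richest. These are descriptions across genes, which share libraries and are not independent, and their part in the ratios was not tested.

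**Figure D4:**
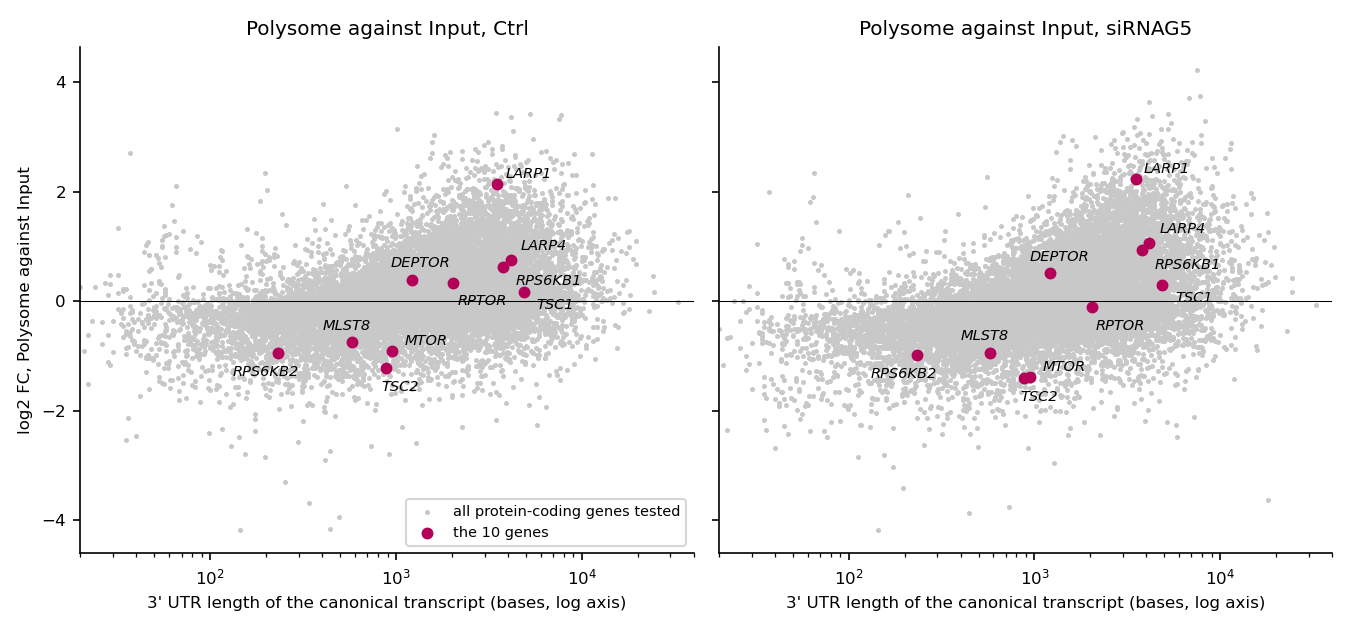
The log2 FC of Polysome against Input (y axis) against 3′ UTR length in bases of the canonical transcript (x axis, log scale) in Ctrl (left) and siRNAG5 (right), with grey points for all protein-coding genes tested and coloured points for the 10 genes. MTOR, TSC2, MLST8 and RPS6KB2, with at most 950 bases, lay below 0 in both panels, and LARP1, LARP4 and RPS6KB1 lay above it.

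Genes with profiles most like LARP1 over the 16 libraries, by Pearson r of log2 CPM among 14957 genes, were DUSP16 (0.989), WNK1 (0.988) and HIPK1 (0.987). Those most like MTOR were GCN1 (0.981), PHKA2 (0.977) and NUP205 (0.977). The 16 libraries span both fractions, so these r include the difference between Polysome and Input.

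The wider pathway was followed in 72 other genes, of which 68 were tested in Input and 69 in the other comparisons. In Input 6 (8.82%) were called higher and 4 (5.88%) lower on silencing, near the 10.5% and 6.02% of all genes tested, with a median log2 FC of 0.07. In Polysome 4 (5.80%) were higher and 1 (1.45%) lower, against 3.95% and 4.0% of all genes, with a median of 0.00.

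Among upstream inhibitors of mTORC1, DDIT4, which encodes the stress-induced inhibitor REDD1, rose in both fractions. It was at 171, 104, 172 and 184 CPM in Input Ctrl and 344, 335, 262 and 299 CPM in Input siRNAG5, with no overlap (log2 FC 0.99 ± 0.11, adjusted p = 2.332e-08), and had 0.91 ± 0.22 in Polysome (adjusted p = 0.0332), a call lost without Polysome Ctrl library 1 or 2 or siRNAG5 library 1, 2 or 3. SESN2, which encodes the leucine sensor Sestrin2, was at 13.6 to 16.1 CPM in Input Ctrl and 27.0 to 34.6 CPM in Input siRNAG5 (log2 FC 1.03 ± 0.10, adjusted p = 4.73e-09), while in Polysome its 0.68 ± 0.26 did not pass (adjusted p = 0.123). RHEBL1, a relative of RHEB that can activate mTORC1, was at 1.60 to 2.27 CPM in Input Ctrl and at 3.49 to 4.42 CPM in Input siRNAG5 (log2 FC 0.99 ± 0.20, adjusted p = 0.0001981) and rose in Polysome too, by 1.35 ± 0.24 (adjusted p = 0.0117). RHEB and TBC1D7, the third TSC subunit, did not pass in either fraction.

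Of 10 tested substrates and effectors, ULK1, the autophagy kinase (log2 FC 0.66 ± 0.16, adjusted p = 0.00207), and TFEB, the lysosomal transcription factor (0.78 ± 0.19, adjusted p = 0.00187), rose in Input. EIF4E, the cap-binding protein held back by the 4E-BPs, fell by 0.57 on the log2 scale (SE 0.09, adjusted p = 6.997e-06). The call of TFEB was lost with Input Ctrl libraries 3 and 4 alone (log2 FC 0.41, adjusted p = 0.166), and its groups overlapped through Ctrl library 4 at 5.59 CPM, against 5.50 to 6.46 CPM in siRNAG5. That of ULK1 was lost with all 16 libraries in one fit (adjusted p = 0.067) and that of EIF4E without Input siRNAG5 library 1 (log2 FC -0.48). None of the 10 passed in Polysome.

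Among 13 Rag GTPase and Ragulator genes, which place mTORC1 on the lysosome, LAMTOR2, LAMTOR4 and RRAGB were lower in Input (log2 FC -0.51, -0.51 and -0.52, adjusted p = 3.648e-07, 4.206e-07 and 0.00385). All 3 lay close to the fold threshold, and the pathway's count of lower genes went to 1 without Input Ctrl library 2, Input siRNAG5 library 1 or siRNAG5 library 2, and to 2 without siRNAG5 library 4 or with Input Ctrl libraries 3 and 4 alone. In Polysome LAMTOR4 was lower by 1.04 (log2 FC -1.04 ± 0.26, adjusted p = 0.0334) and FNIP1, the folliculin partner, higher (0.78 ± 0.21, adjusted p = 0.0456). WDR24 of GATOR2 was higher in Input (0.50 ± 0.12, adjusted p = 0.00171). Its value lay at the fold threshold, and the call was lost in 10 of 17 fits, among them those with RLE size factors or DESeq2 and those without Input Ctrl library 1, 2 or 4 or siRNAG5 library 1 or 2. The Polysome call of LAMTOR4 was lost without Polysome Ctrl library 1 or 2 or siRNAG5 library 1, 2 or 3 (adjusted p up to 0.123). The Polysome call of FNIP1 was lost on leaving out any of 6 of the 8 libraries, and with the replicate number as a block. The other La-related genes, the other mTORC1 and mTORC2 subunits and the TTT complex, which assembles mTOR, had no call in either fraction.

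On polysomes, 19 of the 69 genes (27.5%) were higher than in Input and 7 (10.1%) lower in Ctrl, where 19.4% and 18.2% of all genes were. In siRNAG5 20 (29.0%) were higher and 12 (17.4%) lower, against 21.5% and 25.4% of all genes. LARP4B, the closest relative of LARP4, was higher with log2 FC 1.72 ± 0.19 in Ctrl and 1.61 ± 0.19 in siRNAG5 (adjusted p = 9.998e-07 and 7.384e-07), the only gene called in its list of 5. In the TTT complex TELO2 had -1.37 ± 0.25 in Ctrl and -1.87 ± 0.25 in siRNAG5 (adjusted p = 0.0002291 and 5.248e-06) and TTI2 -0.74 ± 0.20 and -0.85 ± 0.20 (adjusted p = 0.00564 and 0.0012), while TTI1 passed in siRNAG5 with -0.54 ± 0.17 (adjusted p = 0.0117). The call of TTI1 was lost in 7 of 25 fits, with RLE size factors, DESeq2, no filter or siRNAG5 fitted alone and without Input siRNAG5 library 4 or Polysome siRNAG5 library 1 or 4. That of TTI2 in Ctrl was lost with Input Ctrl libraries 1 and 2 alone (adjusted p = 0.0759).

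Of the 13 genes of PI3K, AKT and AMPK inputs, 7 (53.8%) were higher in Polysome and none lower in either treatment, where 19.4% of all genes were higher in Ctrl and 21.5% in siRNAG5. Among the largest were PIK3R1, a regulatory subunit of PI3K (1.77 ± 0.38 in Ctrl and 2.09 ± 0.36 in siRNAG5), PDPK1, the kinase that activates AKT and S6K1 (1.63 ± 0.25 and 1.87 ± 0.23), and DDIT4L in siRNAG5 (1.23 ± 0.24). Nutrient sensors followed, with CASTOR2, a relative of the arginine sensor (1.28 ± 0.31 and 1.51 ± 0.28), and SAMTOR, the S-adenosylmethionine sensor (0.86 ± 0.22 and 1.16 ± 0.20), higher in both treatments and SESN3 higher in siRNAG5 (0.87 ± 0.18). All of these log2 FC had adjusted p between 1.607e-06 and 0.00434. Among the PI3K, AKT and AMPK inputs in Ctrl, the call of PRKAA2 was lost in 9 of 25 fits, that of DDIT4L in 2 and that of AKT2 in 1. None of the 7 calls in siRNAG5 was lost. CASTOR2 rested on few reads, with 5 to 10 in an Input Ctrl library and 7 to 14 in an Input siRNAG5 library.

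Substrates and effectors of mTORC1 went both ways. EEF2K (1.31 ± 0.23 in Ctrl and 1.55 ± 0.22 in siRNAG5), ULK1 (1.62 ± 0.23 and 1.13 ± 0.21) and GRB10 (0.78 ± 0.09 and 0.72 ± 0.09) were higher in Polysome, joined in siRNAG5 by EIF4E (0.76 ± 0.11) and EIF4EBP2 (0.52 ± 0.12), the latter lost without Input siRNAG5 library 1 or 4 or Polysome siRNAG5 library 4. RPS6, the S6 kinase substrate and itself a TOP mRNA, was lower, with -1.03 ± 0.21 and -1.87 ± 0.21 (adjusted p = 0.0004533 and 5.276e-07), as were 74 of the 79 ribosomal protein genes in Ctrl and 78 in siRNAG5.

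Among lysosomal regulators RRAGC (1.17 ± 0.14 and 0.75 ± 0.14) and FNIP2 (1.21 ± 0.35 and 2.01 ± 0.33) were higher in Polysome in both treatments and FLCN in Ctrl (0.58 ± 0.17), whereas LAMTOR1 (-0.84 ± 0.20 and -0.87 ± 0.20) was lower in both and LAMTOR4 in siRNAG5 (-0.52 ± 0.19). The call of LAMTOR4 was lost in 9 of 25 fits, with RLE size factors, DESeq2, no filter, 1 surrogate variable or siRNAG5 fitted alone and without Input siRNAG5 library 3, Polysome Ctrl library 1 or Polysome siRNAG5 library 2 or 3. In Ctrl FLCN was lost without Polysome Ctrl library 2, and FLCN and FNIP2 with Input Ctrl libraries 1 and 2 alone. FNIP2 rested on few reads, with 7 to 20 in an Input Ctrl library and 3 to 17 in an Input siRNAG5 library. Of 12 GATOR and KICSTOR genes, NPRL2 and KPTN were lower in both treatments (-0.71 to -0.56) and SEH1L and KICS2 higher in both (0.57 to 0.80). NPRL3 was higher (0.56 ± 0.11) and ITFG2 lower (-0.51 ± 0.16) in Ctrl, and SEC13 (-0.63 ± 0.11) and WDR59 (-0.50 ± 0.10) were lower in siRNAG5. Several of these lay near the fold threshold. WDR59 was lost in 13 and ITFG2 in 10 of 25 fits, including RLE size factors and DESeq2 for both and 6 single libraries left out for each. In Ctrl SEH1L was lost without Input Ctrl library 3 and KICS2 without Polysome Ctrl library 1, both also with Input Ctrl libraries 1 and 2 alone, and NPRL3 with libraries 3 and 4 alone. PRR5 of mTORC2 was lower in siRNAG5 (-0.64 ± 0.16). For change of polysome loading no pathway gene was called, with 9 of 69 at an unadjusted p under 0.05.

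**Figure D5:**
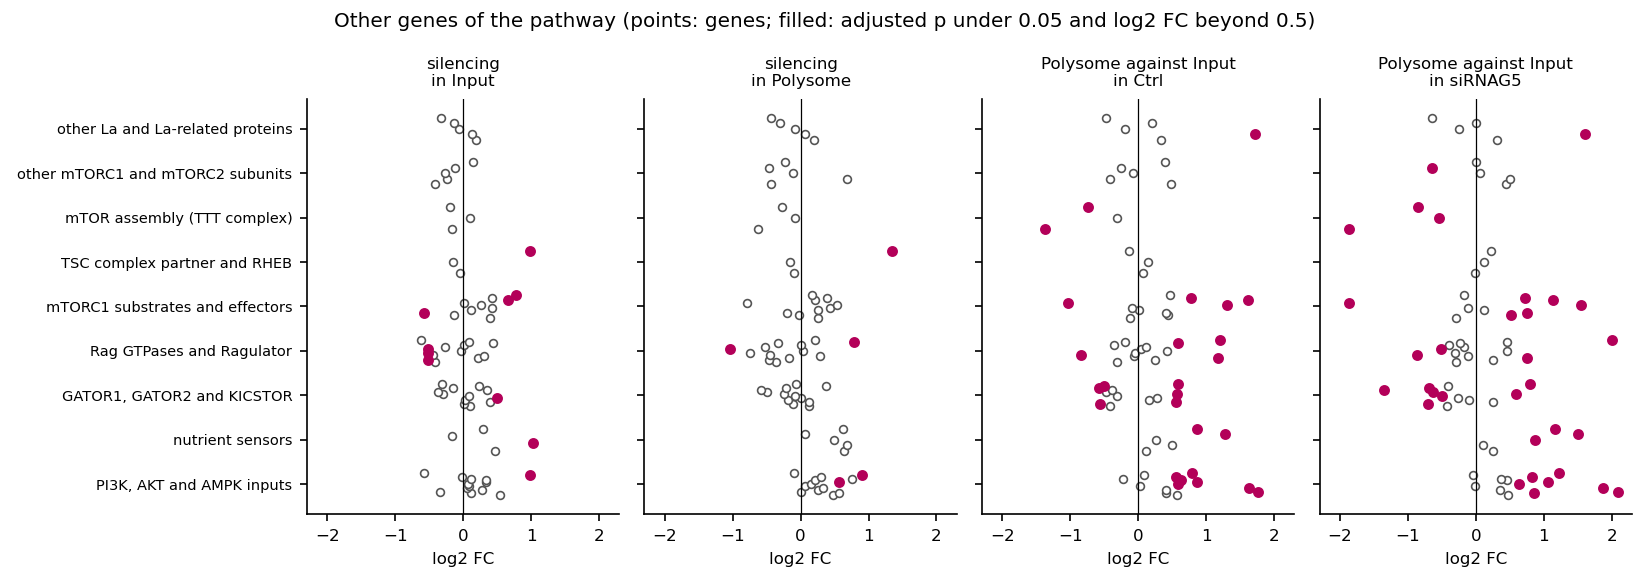
The log2 FC (x axis) of the other pathway genes in 9 lists (rows) for silencing in each fraction and for Polysome against Input in each treatment (panels), each point a gene, filled where called. In the comparisons of Polysome with Input the 3 TTT genes lay below 0, and 12 of 13 (Ctrl) and 11 of 13 (siRNAG5) PI3K, AKT and AMPK input genes above 0.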

How the data were processed

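RNA of cytoplasmic lysates and of polysome fractions was sequenced by the authors from TruSeq stranded mRNA libraries. Reads were aligned to GRCh38 with STAR 2.5.3a and counted per gene, and the deposited values are raw read counts with no normalization. The strand setting of the counting was not given in the sources used here. Reads of no single gene (no feature 0.667 to 1.329%, ambiguous 4.14 to 7.411%, not uniquely aligned 4.88 to 6.038% in Input and 21.19 to 42.439% in Polysome) were left out, as percentages of the file totals.

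Counts were tested with edgeR 4.0.16 (filterByExpr, TMM, quasi-likelihood test, Benjamini-Hochberg adjustment over all genes tested). The SE of a log2 FC was derived from that test, as the size of the log2 FC divided by the square root of its F statistic. A gene was called where its adjusted p lay below 0.05 and its log2 FC exceeded 0.5 in size. Silencing was fitted within each fraction (8 libraries). Polysome against Input and its change were fitted over all 16 libraries with a mean per group. That fit gave each gene 1 estimate of spread for both fractions. Fitted alone, the spread was wider in Polysome than in Input (common biological coefficient of variation 0.216 and 0.0806). The scripts were tested on simulated data. CPM used TMM factors over the 16 libraries. Alternatives used DESeq2 1.42.0, sva 3.50.0, RLE size factors, no filter, unadjusted p, no fold threshold, a replicate block and leaving out each library. No pair of libraries held identical counts. P-values set a difference against the spread between libraries, with each library taken as independent.

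Transcript features came from canonical transcripts of GENCODE v44 on GRCh38, and 57532 of the 58302 identifiers were named by it. The 10 genes and the pathway lists were chosen with earlier results of these data known. All 10 genes were named, of the pathway those called in any of the 5 comparisons (where over 6 were called in a list and comparison, the 3 largest in each direction), and the 3 genes most like LARP1 and MTOR. RHEB and TBC1D7 and the values of SESN2 in Polysome were added after their values were seen. Some genes that this rule names are not reported here.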

Additional observations from a re-analysis of the deposited data

Results flagged for a closer look

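In 40 groups of 4 libraries (10 genes in 4 groups), 2 values stood apart from their group by Dixon's criterion, where chance flags about 5% of groups. Both were the highest value of Input siRNAG5 and both came from library 1, which had TSC2 at 35.6 CPM (gap over range 0.873) against 27.0 to 28.1 CPM in the other 3 libraries, and RPS6KB2 at 148 CPM (0.836) against 124 to 128 CPM. In that library the deviation from the group mean was related to GC content with rho = 0.58 over 12433 genes, and both transcripts are rich in GC (60.4% and 62.3%). The part of GC content in these values was not tested. Neither gene was called for silencing in Input, and leaving out any library did not change this.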

How the results depend on the processing

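Counts of the 10 genes called were within 1.5 times of the value reported for Polysome against Input in both treatments, for silencing in Polysome and for the change of loading under every alternative. For silencing in Input the 2 higher genes became 1 with all 16 libraries in one fit, and 1 with Input Ctrl libraries 1 and 2 alone or 3 and 4 alone, an alternative chosen after seeing the data, and leaving out a library gave 1 to 2. Without the fold threshold 1 gene (MLST8) was lower.

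Pathway genes lower in Input (4) became 2 without a filter on low counts, 2 with all 16 libraries in one fit, 2 with Input Ctrl libraries 3 and 4 alone, and 12 without the fold threshold, with 1 to 4 when leaving out a library, and those higher (6) became 16 without the fold threshold, with 5 to 7. In Polysome the 1 lower gene became 2 with RLE size factors, 4 with DESeq2, 3 without a filter, 6 with 1 surrogate variable, 7 with all 16 libraries and 5 with unadjusted p, with 0 to 3 when leaving out a library. The 4 higher genes there became 7 with DESeq2, 7 without a filter, 9 with 1 surrogate variable, 9 with all 16 libraries and 10 with unadjusted p, with 1 to 7 when leaving out a library. For the change of loading, 3 pathway genes were lower with 1 surrogate variable, 4 with unadjusted p, and 3 higher with unadjusted p. The causes were not tested.

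Same-numbered libraries of Ctrl and siRNAG5 had r from -0.53 to 0.48 over genes. Those of Input and Polysome had r from -0.21 to 0.22. The same number was the best match there for Ctrl numbers 2 and 4 and siRNAG5 numbers 1 and 2. The paper took Input and Polysome RNA from the individual lysates, so these may be pairs. The main fits did not take the numbers as pairs. In the alternative with a block, that block was the replicate number for silencing. It was the culture (treatment and replicate number) for the other comparisons. There the 10 genes had the same counts in all 5 comparisons, such as 2 higher in Input and 1 in Polysome, and pathway genes higher in Polysome were 3. No called value changed sign under the alternatives, while 29 gene values that were not called did. Among the 10 genes, fewest reads lay on RPTOR and MTOR, with 33 to 181 and 52 to 277 reads in a library.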
